A study of Anopheles gambiae with 9 samples.

Results

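The pedicels of dsxF-/- XX mosquitoes, genetic females of Anopheles gambiae that lack the female isoform of the sex determination factor doublesex and develop male-like ears, were set against the pedicels of dsxF+/+ XY control males. The comparison took 6 of the 9 libraries of the series, 3 a side, chosen by the genotype in their labels and not by any measured value. The question was which transcripts still separate the masculinized XX ear from the male ear.

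The pedicel is the second antennal segment and houses the Johnston's organ, the hearing organ of the mosquito, whose sensory neurons end in a motile cilium that couples to the vibrating flagellum. Male mosquitoes find females by the sound of their wings, and the male organ is larger and holds more neurons than the female one. In insects doublesex is spliced into a female and a male form, and each form regulates genes of the dimorphic tissues of its sex. Axonemal dyneins are the motors that bend motile cilia, tubulins and tektins build the microtubule doublets they act on, and potassium channels and transmitter receptors set the excitability of the neurons.

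The dsxF-/- XX group came from a doublesexF mutant strain, and the dsxF+/+ XY and dsxF+/+ XX groups from the G3 strain, so that strain background and mutation cannot be told apart. The study sex separated the pupae of the dsxF+/+ groups into single-sex cages and did not do so for dsxF-/- pupae, which also cannot be told apart from the genotype. All groups were young adults of 1 age range, entrained to a light and dark cycle and frozen at dusk, and each library was made from a pool of dissected pedicels described as a separate biological repeat. The dsxF+/+ XX females are shown only as a point of comparison. In pooled tissue, fewer cells of a type and less RNA per cell cannot be told apart, which applies to every level below, since the ears of these groups can differ in their number of neurons.

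The libraries held 14177255 to 17477058 estimated counts in dsxF-/- XX and 14708863 to 18379886 in dsxF+/+ XY. No 2 libraries of a group were copies of each other. The transcript of the channel nanchung (AGAP012241-RA), which Drosophila needs for hearing, had 2497, 3198 and 2967 normalized counts (counts scaled for library size) in the dsxF-/- XX libraries, against 3514, 3604 and 3950 in the dsxF+/+ XY libraries. All 22 transcripts with ciliary or dynein names, not all of them axonemal by name, were counted in both groups. Their summed level was 5399 to 5921 CPM (counts scaled to library size) in dsxF-/- XX and 7649 to 8266 CPM in dsxF+/+ XY. The study chose nanchung and these names from the same libraries, so their presence is no independent check of the dissected organ. The doublesex gene itself was not analysed here, because no source used here pairs it with a transcript identifier, so the labels were not checked against the mutated gene.

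The larger set of transcripts separating the 2 ears lay higher in dsxF-/- XX than in dsxF+/+ XY. A transcript was called different where the quasi-likelihood test of edgeR gave a p under 0.05 after Benjamini-Hochberg adjustment over the 12379 transcripts tested. By this rule 754 transcripts of 727 genes were higher in dsxF-/- XX, which is 6.09% of those tested, and 161 transcripts of 157 genes were lower, which is 1.3%. Before adjustment, 1601 and 745 transcripts had a p under 0.05. Among the called transcripts, 702 were more than 2-fold higher (5.67% of those tested) and 118 more than 2-fold lower (0.953%). In the higher set 378 of the 754 were over 4-fold and 84 over 16-fold, with a median of 4.02-fold. In the lower set 45 of the 161 were over 4-fold and 18 over 16-fold, with a median of 2.44-fold. All 3 dsxF-/- XX libraries lay above all 3 dsxF+/+ XY libraries for 753 of the 754, and below them for all 161, whereas over all transcripts tested the libraries were separated in these ways for 16.4% and 11.6%. The test itself favours separated libraries, so this is no further support for the calls. The median log2 fold change over all transcripts was -0.02. For 5715 transcripts, 46.2% of those tested, the 95% interval of the fold change lay within 2-fold either way.

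**Figure D1:**
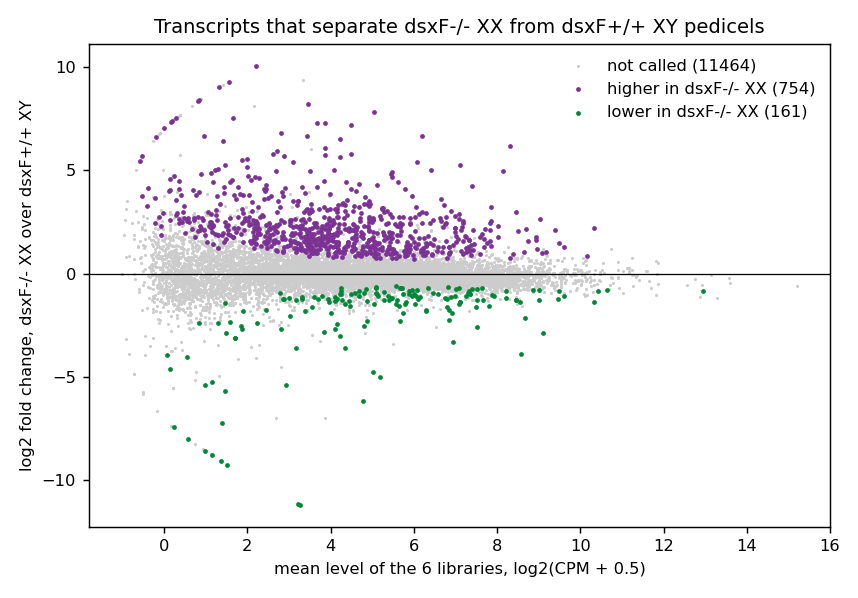
Log2 fold change of dsxF-/- XX over dsxF+/+ XY (vertical axis) against the mean level of the 6 libraries, log2(CPM + 0.5) (horizontal axis), for the 12379 transcripts tested. The 754 transcripts higher in dsxF-/- XX (purple) and the 161 lower (green) span the range of levels; arcs of points at the far left are transcripts with few or no counts in 1 group, where the fit leans on its prior count.

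Most transcripts of the higher set were also counted in males, and 12 had no count in any male library. Their median level was 24.2 CPM in dsxF-/- XX and 5.86 CPM in dsxF+/+ XY, 409 of the 754 averaged at least 5 CPM in males, and 154 averaged under 1 CPM there. Together they took 4.98% to 6.37% of the counts of each dsxF-/- XX library, against 1.16% to 1.72% in dsxF+/+ XY and 8.60% to 11.8% in dsxF+/+ XX. By library, the median log2(CPM + 0.5) of the set was 4.46, 4.78 and 4.44 in dsxF-/- XX and 2.82, 2.21 and 2.73 in dsxF+/+ XY, so the second male library stood lowest and the second dsxF-/- XX library highest. The count of the set was 436 when dsxF-/- XX replicate 2 was left out, 531 when dsxF+/+ XY replicate 2 was, and 498 when dsxF+/+ XY replicate 3 was.

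The lower set took 1.74% to 1.83% of the counts in dsxF-/- XX libraries, against 3.44% to 3.63% in dsxF+/+ XY and 0.685% to 0.877% in dsxF+/+ XX. Its median level was 22.9 CPM in dsxF-/- XX and 56.0 CPM in dsxF+/+ XY. The 3 dsxF-/- XX libraries stood close together, with medians of 4.53, 4.50 and 4.53 on the log2(CPM + 0.5) scale, and the dsxF+/+ XY libraries stood at 5.65, 5.96 and 5.63. The count of this set was the less steady of the pair: leaving out replicate 1, 2 or 3 of dsxF-/- XX gave 77, 66 or 65 calls, and leaving out replicate 1, 2 or 3 of dsxF+/+ XY gave 117, 87 or 74. DESeq2 called 351 transcripts lower, and all 161 were among them.

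**Figure D2:**
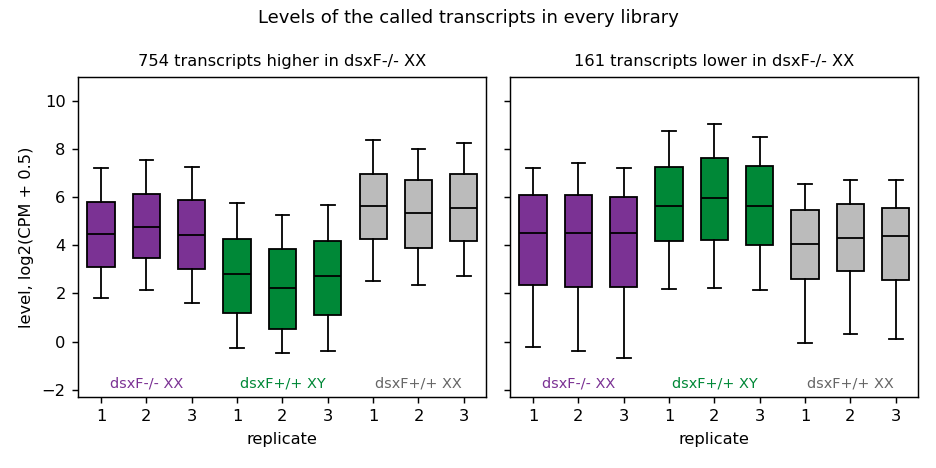
Levels of the called transcripts, log2(CPM + 0.5), in each library; boxes give the quartiles and median over transcripts, and whiskers the 10th and 90th percentiles. In the 754 transcripts higher in dsxF-/- XX (left) the medians are 4.44 to 4.78 in dsxF-/- XX (purple), 2.21 to 2.82 in dsxF+/+ XY (green) and 5.35 to 5.66 in dsxF+/+ XX (grey); in the 161 lower (right) they are 4.50 to 4.53, 5.63 to 5.96 and 4.07 to 4.38.

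The female libraries were not part of the contrast that chose the sets, although they entered the same fit and so its spread and its filter on low counts. With the 6 libraries alone edgeR called 665 higher and 177 lower, and 622 and 134 of these were among the sets described here. For the higher set the median log2 fold change was 2.01 for dsxF-/- XX over dsxF+/+ XY (quartiles 1.44 and 2.73), -0.91 for dsxF-/- XX over dsxF+/+ XX (quartiles -1.62 and -0.16) and -2.96 for dsxF+/+ XY over dsxF+/+ XX. These medians placed dsxF-/- XX between the females and the males, where its place above the males was fixed by how the set was chosen. For the lower set the medians were -1.29, 0 and 1.48, with quartiles of -0.61 and 0.79 for dsxF-/- XX over dsxF+/+ XX. The 3 comparisons share libraries, and a set chosen for low or high male values leans the same way in any other comparison with those males. It is equally chosen for high or low dsxF-/- XX values, so the medians for dsxF-/- XX over dsxF+/+ XX lean too.

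The calls that were made by edgeR, DESeq2 and limma-voom and again by edgeR with each of the 9 libraries left out in turn came to 361 of the 754 higher transcripts, from 352 genes, and 47 of the 161 lower, from 46 genes. Their median log2 fold changes were 2.30 and -2.67, and the smallest in size were 0.84 and -0.98. With edgeR alone, 377 and 47 calls were kept through every library left out. Of these steady calls, 3 of the higher set and 4 of the lower set stand on a list of the study, and they are named below.

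Names were scarce in the higher set. The study pairs 82 transcripts with a protein name, chosen by its authors from these same libraries for the motor, ciliary, channel, receptor and cuticle functions of the male ear, and this selection leans towards transcripts high in males. Of the 80 that were tested, 6 were lower in dsxF-/- XX (7.5%, against 1.3% of all transcripts), 1 was higher (1.25%, against 6.09%) and 73 were not called. The study drew these names from subsets defined in part by its own comparison of dsxF+/+ XY with dsxF-/- XX on these libraries. All 6 lower calls come from subsets that it had called higher in males there. These shares are therefore not independent evidence. The 2 lists of dynein and tubulin transcripts that the study compared with testes bring 8 more members of the higher set and 1 more of the lower set, with an identifier but no name. The other called transcripts have no name in the sources used here.

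Among the named transcripts, 3 of channels and receptors were lower in dsxF-/- XX than in males, and their dsxF-/- XX levels stood near the female ones. A transcript of a potassium inwardly-rectifying channel of subfamily J (AGAP001284-RA), a class of channel that helps set the resting potential, had 0, 2.63 and 0.967 normalized counts in dsxF-/- XX, against 87.4, 58.4 and 69.3 in dsxF+/+ XY. In the dsxF+/+ XX libraries it had 0, 0.947 and 2.30. The channel was thus counted at a few reads or none in every XX library of either genotype, and its log2 fold change was -5.69 (95% interval -7.69 to -3.69, edgeR adjusted p = 0.00602). Its relative AGAP001281-RB, of the same subfamily by name, had a log2 fold change of -0.16 (95% interval within 2-fold, edgeR adjusted p = 0.722).

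Putative metabotropic glutamate receptor 5 (AGAP005034-RA), a G protein-coupled receptor for glutamate, had 40.3, 41.2 and 27.1 normalized counts in dsxF-/- XX, against 957, 1106 and 925 in dsxF+/+ XY. The females had 45.7, 54.9 and 82.8. The groups were far apart and each was tight, giving a log2 fold change of -4.78 (SE 0.29, edgeR adjusted p = 9.92e-05), and the call was made by each tool and with each library left out. Over the 14 named transcripts of neurotransmitter and neuropeptide receptors this was the only call (7.14% lower, against 1.3% of all transcripts). None was higher, against 6.09%, and the median log2 fold change over the list was -0.70. The study chose these names on the same libraries.

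A voltage-gated potassium channel (AGAP005251-RA), of the kind that repolarizes neurons, had 132, 70.1 and 60.9 normalized counts in dsxF-/- XX, against 321, 860 and 250 in dsxF+/+ XY and 43.0, 126 and 109 in dsxF+/+ XX. The second male library was the high one, and the log2 fold change was -2.44 (SE 0.58, edgeR adjusted p = 0.0335). It became -1.70 without that library (edgeR adjusted p = 0.102), and the call was also lost without dsxF-/- XX replicate 2 (-2.28, adjusted p = 0.137), dsxF-/- XX replicate 3 (-2.24, adjusted p = 0.127) and dsxF+/+ XX replicate 3 (-2.43, adjusted p = 0.0507). Of 7 named potassium channel transcripts, 2 were lower (28.6%, against 1.3% of all transcripts) and none was higher in dsxF-/- XX (against 6.09%), with a list median of -0.76. One of those 2 calls is that of AGAP005251-RA, which rests on single libraries, and the study chose the list on these libraries.

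Cuticular protein RR-1 family 68 (AGAP006838-RA), of the chitin-binding proteins of the insect exoskeleton, had 162, 184 and 185 normalized counts in dsxF-/- XX, against 706, 375 and 496 in dsxF+/+ XY. Its dsxF-/- XX libraries were the tightest group and lay below every male one. The 95% interval of its log2 fold change was -2.19 to -0.95. The other 7 named cuticular transcripts tested were not called and lay on both sides of 0, among them RR-1 family 60 (AGAP006828-RA) at 0.95 and RR-2 family 70 (AGAP006283-RB) at 1.48, each with its dsxF-/- XX libraries above the male ones. Of the 8 tested 1 was thus lower (12.5%, against 1.3% of all transcripts) and none higher (against 6.09%). The list median was -0.12.

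**Figure D3:**
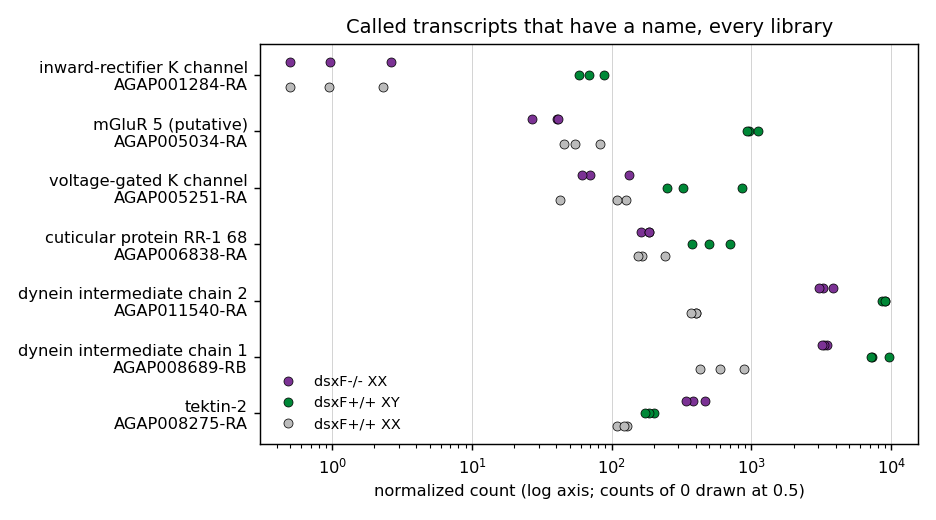
Normalized counts (log axis) in every library of the 7 called transcripts that have a name: dsxF-/- XX purple, dsxF+/+ XY green, dsxF+/+ XX grey, 3 points each. The potassium channel AGAP001284-RA and the glutamate receptor AGAP005034-RA are near the female level in dsxF-/- XX, the 2 dynein intermediate chains lie between both controls, and tektin-2 lies above both.

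The named axonemal dynein intermediate chains 1 and 2 were lower in dsxF-/- XX than in males and stood above the females. These chains form the base of the dynein arm on which the motor's heavy chains are held. Dynein intermediate chain 2 (AGAP011540-RA) had 3241, 3840 and 3032 normalized counts in dsxF-/- XX, against 9010, 8563 and 9052 in dsxF+/+ XY, a log2 fold change of -1.40 (SE 0.17, edgeR adjusted p = 0.00176). The females had 400.5, 402 and 370, so the dsxF-/- XX level lay apart from both controls, with no overlap of libraries. Dynein intermediate chain 1 (AGAP008689-RB) had 3474, 3317 and 3219 in dsxF-/- XX, against 7342, 9570 and 7140 in dsxF+/+ XY and 429, 889 and 591 in dsxF+/+ XX. Its log2 fold change over males was -1.26 (SE 0.27, edgeR adjusted p = 0.0214). This second call was lost without any 1 of the dsxF-/- XX libraries and without male replicate 2 or 3 (edgeR adjusted p = 0.0529 to 0.0908), at log2 fold changes of -1.32 to -1.12. Reads of this transcript are shared with AGAP008689-RA, and the sum of both gave -1.21 (edgeR adjusted p = 0.0114).

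The other named dyneins, kinesins, myosins and tubulins were not called, and the medians of their lists lay below the male level. The study had placed these other transcripts in subsets that it did not call higher in males than in dsxF-/- XX. The lack of calls here was thus partly settled by that sorting. The list of 13 named dyneins, dynein regulatory complex proteins and assembly factors holds members whose names do not say axonemal. The intermediate chains 1 and 2 were its only calls, with a list median of -0.42. They make 15.4% lower, against 1.3% of all transcripts, and none was higher, against 6.09%. A further transcript named dynein intermediate chain (AGAP000320-RA) had a log2 fold change of 0.17 (edgeR adjusted p = 0.850) and was not called. A dynein heavy chain (AGAP009568-RA) had a log2 fold change of -1.30 (SE 0.48, edgeR adjusted p = 0.167), and dynein assembly factor 1 (AGAP009594-RA), which preassembles the arms in the cytoplasm, had -0.17 (SE 0.18, edgeR adjusted p = 0.700). No transcript was called among 10 named kinesins and myosins (median -0.42) or 8 named tubulins and microtubule proteins (median -0.34). Over all transcripts 6.09% were higher and 1.3% lower, so lists this short can hold no call at those shares. A missed threshold is no evidence that the levels were equal.

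Tektin-2 (AGAP008275-RA), a filament protein of the inner wall of ciliary microtubules, was the 1 named transcript higher in dsxF-/- XX than in males. It had 381, 339 and 467 normalized counts in dsxF-/- XX, against 202, 184 and 174 in dsxF+/+ XY and 129, 109 and 122 in dsxF+/+ XX. The dsxF-/- XX libraries thus lay above both controls. The log2 fold change over males was 1.08 (SE 0.20, edgeR adjusted p = 0.0116), and the call was lost on leaving out dsxF-/- XX replicate 3 (0.95, adjusted p = 0.0505) or dsxF+/+ XY replicate 3 (1.06, adjusted p = 0.0532). The study placed tektin-2 in a subset that it described as not different between these 2 groups. DESeq2 as run here called it higher in dsxF-/- XX (1.08, DESeq2 adjusted p = 4.71e-05), and the cause of this difference was not tested. Tektin-3 (AGAP000219-RA), of the same family, had -0.56 (SE 0.22, edgeR adjusted p = 0.206), and each dsxF-/- XX library lay below the male ones.

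The dynein list of the study held more members higher than lower in dsxF-/- XX. Of its 44 transcripts 39 were tested, 5 were higher (12.8%, against 6.09% of all transcripts) and 2, the named intermediate chains 1 and 2, were lower (5.13%, against 1.3%), with a median of -0.01. The members were named after their values were seen, and the study sorted the list by levels in testes and in the male pedicel libraries used here. AGAP011539-RA had 812, 787 and 842 normalized counts in dsxF-/- XX, against 69.5, 92.5 and 77.2 in dsxF+/+ XY and 498, 530 and 470 in dsxF+/+ XX. Its log2 fold change of 3.35 (SE 0.18, edgeR adjusted p = 4.5e-05) stood among the steady calls. AGAP005171-RA had 857, 930 and 858 in dsxF-/- XX, against 62.1, 139 and 76.3 in dsxF+/+ XY, a log2 fold change of 3.26 (SE 0.30, edgeR adjusted p = 5.15e-04). Both dynein-list transcripts had their female libraries between the 2 other groups.

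AGAP001660-RA, on the dynein and the tubulin list, was at 165, 137 and 167 normalized counts in dsxF-/- XX, against 34.8, 32.9 and 48.2 in dsxF+/+ XY and 56.7, 56.8 and 50.6 in dsxF+/+ XX. It is the last of the 3 steady higher calls that stand on a list, with a log2 fold change of 2.01 (95% interval 1.37 to 2.65). AGAP006036-RA had 1051, 1243 and 1607 in dsxF-/- XX, against 620, 397 and 638 in dsxF+/+ XY (log2 fold change 1.24), and lost its call without dsxF-/- XX replicate 2 (1.30, edgeR adjusted p = 0.0509) or 3 (1.05, adjusted p = 0.0643). AGAP001672-RB, on both lists, had 3793, 2453 and 2080 in dsxF-/- XX, against 446, 344 and 633 in dsxF+/+ XY (log2 fold change 2.55, edgeR adjusted p = 0.0462). The call of AGAP001672-RB was lost without any 1 of the 6 libraries compared (adjusted p = 0.0794 to 0.154), and it shares reads with AGAP001672-RA. With those 6 libraries alone, and no female ones, the call was kept (edgeR adjusted p = 0.00576). The sum over the 2 transcripts of that gene was 4588 normalized counts in dsxF-/- XX and 838 in dsxF+/+ XY, a log2 fold change of 2.45 (edgeR adjusted p = 0.00574).

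On the tubulin list 138 of 155 transcripts were tested, 5 were higher (3.62%, against 6.09% of all transcripts) and 1 was lower in dsxF-/- XX (0.725%, against 1.3%), with a median of -0.17. Beside the 2 shared with the dynein list, the higher ones were AGAP009638-RA (log2 fold change 1.13, edgeR adjusted p = 0.0344), AGAP028038-RA (1.69, adjusted p = 0.0438) and AGAP001570-RB (1.67, adjusted p = 0.0458). None of these 3 was steady. With the 6 libraries alone AGAP009638-RA and AGAP001570-RB kept their calls (edgeR adjusted p = 0.01505 and 0.0194), and AGAP028038-RA did not (0.0667). AGAP009638-RA lost its call without any 1 of the 6 libraries compared (log2 fold change 1.03 to 1.25, adjusted p = 0.0662 to 0.115). AGAP028038-RA lost it without dsxF-/- XX replicate 1 or 3, any male library, or dsxF+/+ XX replicate 2 or 3 (1.42 to 1.87, adjusted p = 0.0590 to 0.165), and AGAP001570-RB without any 1 of the 6 or dsxF+/+ XX replicate 1 (1.39 to 1.96, adjusted p = 0.0536 to 0.152).

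**Figure D4:**
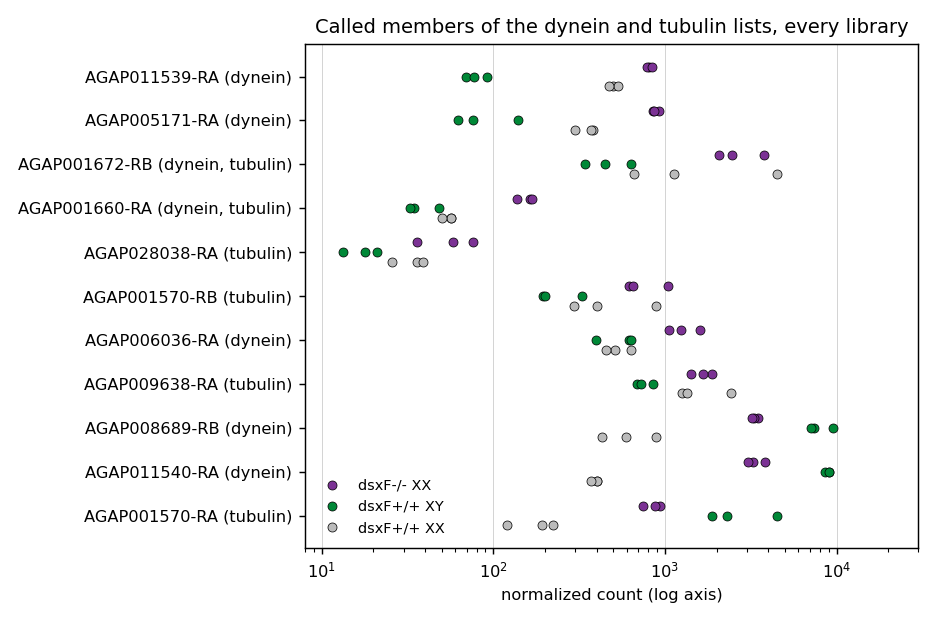
Normalized counts (log axis) in every library of the 11 called members of the study's dynein and tubulin lists: dsxF-/- XX purple, dsxF+/+ XY green, dsxF+/+ XX grey, 3 points each. The 8 upper rows are higher in dsxF-/- XX, led by AGAP011539-RA and AGAP005171-RA, and the 3 lower rows are lower, with the 2 intermediate chains at 3032 to 3840 in dsxF-/- XX against 7140 to 9570 in dsxF+/+ XY.

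Over the 80 named transcripts tested, the log2 fold changes had a median of -0.49, beside -0.02 over all transcripts, and 68 of them were below 0. The dsxF-/- XX libraries lay wholly below the male libraries for 37 and wholly above them for 4, beside 11.6% and 16.4% of all transcripts tested. For 23 of the 80 the 95% interval was within 2-fold. As the study picked the list for high male levels on the same libraries, its direction is not independent evidence.

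Some named transcripts missed the threshold although their dsxF-/- XX and male libraries did not overlap. A histamine-gated chloride channel subunit (AGAP001990-RA), an inhibitory receptor, averaged 220 normalized counts in dsxF-/- XX and 815 in dsxF+/+ XY, a log2 fold change of -1.89 (SE 0.53, edgeR adjusted p = 0.0650). AGAP006629-RA, which encodes a regulator of G-protein signalling, averaged 878 in dsxF-/- XX and 1532 in dsxF+/+ XY, with -0.80 (SE 0.22, edgeR adjusted p = 0.0585). Nicotinic acetylcholine receptor subunit alpha 3 (AGAP000329-RA) had -1.01 (SE 0.32, edgeR adjusted p = 0.102), and the Shaker-related potassium channel (AGAP000254-RA) had -1.22 (SE 0.48, edgeR adjusted p = 0.195). In each of these 4 the dsxF-/- XX libraries lay below all male ones. Putative tachykinin receptor 1 (AGAP002824-RA), a neuropeptide receptor, went the other way, with an average of 494 in dsxF-/- XX and 199 in dsxF+/+ XY (log2 fold change 1.31, edgeR adjusted p = 0.125).

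**Figure D5:**
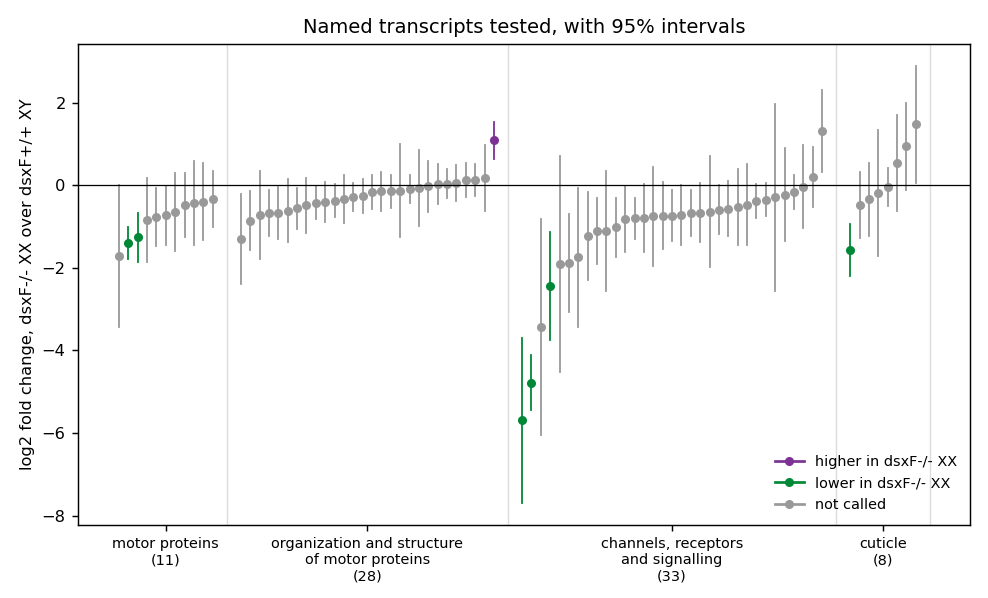
Log2 fold change of dsxF-/- XX over dsxF+/+ XY with its 95% interval for the 80 named transcripts tested, ordered by value within the study's 4 themes (number of transcripts in brackets). The 6 transcripts lower in dsxF-/- XX are green and the 1 higher is purple; the 73 not called are grey, and 68 of the 80 values are below 0.

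Outside the lists, 2 unnamed transcripts per direction are given as the largest called changes with separated libraries and at least 5 CPM in the higher group. AGAP003350-RA had 207, 29.8 and 164 normalized counts in dsxF-/- XX and none in any dsxF+/+ XY library, at least 129.9-fold higher by a floor of 3 counts over the male group. Its call was lost by limma-voom (adjusted p = 0.0687) and without any 1 of dsxF-/- XX replicates 1 and 3 and dsxF+/+ XY replicates 1 to 3 (edgeR adjusted p = 0.0606 to 0.0720). AGAP002451-RA had 394, 601 and 26.1 in dsxF-/- XX, against 2.11, 0 and 0.877 in dsxF+/+ XY and 1265, 562 and 1687 in dsxF+/+ XX, so dsxF-/- XX replicate 3 stood far below the other two. AGAP000080.R648 had no count in dsxF-/- XX, against 326, 329 and 236 in dsxF+/+ XY, at least 303.7-fold lower. AGAP029221-RA was at 0 in every XX library of either genotype and at 286, 296 and 271 in dsxF+/+ XY, at least 290.8-fold lower in dsxF-/- XX. The floors cover counting error only. AGAP003350-RA and AGAP000080.R648 belong to genes with 2 and 6 transcripts, and their estimates were not whole in 7 and 8 of the 9 libraries. Their zeros can thus rest on how shared reads were divided, and the sums of these genes are not given here.

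A transcript with no count in 1 group and at least 10 in every library of the other was rare among the 16066 transcripts. All such transcripts were called, but the rule picks separated libraries, so the calls are no further support. There were 8 counted in dsxF-/- XX and not in males, and the members below were singled out after their values were seen. In 5 of the 8, AGAP001499-RB, AGAP001769-RC, AGAP001980-RB, AGAP009877-RA and AGAP010548-RA, every female library also held at least 10 counts. AGAP010548-RA had 48.2, 104 and 40.6 normalized counts in dsxF-/- XX, 0 in males and 1342, 1219 and 1583 in females. AGAP009877-RA had 35.8, 9.64 and 81.2 in dsxF-/- XX, where the females had 13314, 10225 and 9097. Both transcripts were thus far lower in dsxF-/- XX than in females and absent from the male counts. AGAP028159-RA was counted in dsxF-/- XX alone, at 17.9, 21.0 and 22.2, and AGAP003350-RA and AGAP007691-RA were uneven among the females. The call of AGAP028159-RA was lost without any 1 of the dsxF-/- XX libraries (edgeR adjusted p = 0.0680 to 0.0869), and that of AGAP007691-RA without any 1 library other than dsxF+/+ XX replicate 1 (0.0531 to 0.109). AGAP001499-RB, AGAP001769-RC, AGAP003350-RA and AGAP007691-RA belong to genes with more than 1 transcript, and part of their reads is divided by estimation.

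In the other direction 7 transcripts had no count in dsxF-/- XX and were counted in every male library. In 3 of them, AGAP011047-RA, AGAP029221-RA and AGAP029375-RA, the females also held no count, so that these were counted in XY libraries alone. Karyotype and the state of the ear cannot be told apart for these 3. AGAP029375-RA had 66.3, 60.8 and 73.7 normalized counts in dsxF+/+ XY and AGAP011047-RA had 49.5, 41.4 and 77.2. AGAP011046-RA and AGAP000080.R648 had a few counts in 1 and 2 of the female libraries. AGAP004107-RB and AGAP005054-RB were counted in every female library, and AGAP005054-RB had 0 in dsxF-/- XX, against 106, 68.1 and 56.1 in dsxF+/+ XY and 65.8, 99.4 and 58.6 in dsxF+/+ XX. Those 2 thus separate the mutants from both G3 groups, and strain and mutation cannot be told apart. Each of those genes has more than 1 transcript, and part of their reads is divided by estimation. The same holds for AGAP000080.R648. The call of AGAP004107-RB was lost without dsxF-/- XX replicate 2 (edgeR adjusted p = 0.0503).

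In 5 genes 1 transcript was higher and another lower in dsxF-/- XX, and they were likewise picked after their values were seen. In AGAP001570, on the tubulin list, the -RA transcript averaged 852 normalized counts in dsxF-/- XX and 2886 in dsxF+/+ XY (log2 fold change -1.76, edgeR adjusted p = 0.0158), and the -RB transcript averaged 769 and 242 (1.67). The -RA call was lost without dsxF-/- XX replicate 2 (-1.75, edgeR adjusted p = 0.0676) or 3 (-1.67, adjusted p = 0.0657). The gene as a whole gave -0.96 (edgeR adjusted p = 0.191). In AGAP029978 the .R817 transcript averaged 644 in dsxF-/- XX and 3045 in dsxF+/+ XY (-2.24), and .R815 averaged 1732 and 843 (1.04), with a gene sum of -0.59 (edgeR adjusted p = 0.146). Both calls of AGAP029978 and that of AGAP004179-RB were kept with each library left out.

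In AGAP029403 the .R418 transcript averaged 611 in dsxF-/- XX and 142 in dsxF+/+ XY, and .R417 averaged 167 and 391, while the gene sums were 880.3 and 761. In AGAP004179 the -RB transcript averaged 1.23 in dsxF-/- XX and 54.4 in dsxF+/+ XY, beside 240.0 and 478 for -RC and 392 and 189 for -RA, and the gene gave -0.19 (edgeR adjusted p = 0.596). In AGAP004046 the -RA transcript averaged 951 in dsxF-/- XX and 304 in dsxF+/+ XY and -RC 23.2 and 81.1, and this was the only one of the 5 whose sum was called (1.25, edgeR adjusted p = 0.0419). Without any 1 of several libraries the other calls of these genes were lost. For .R417 these were dsxF-/- XX and dsxF+/+ XY replicates 1 and 2 (edgeR adjusted p = 0.0545 to 0.0677), and for .R418 dsxF+/+ XY replicate 3 as well (0.0501 to 0.0889). For AGAP004179-RC they were dsxF-/- XX replicates 1 and 3 and dsxF+/+ XY replicate 3 (0.0603 to 0.0677), and for AGAP004179-RA each of the 6 libraries compared except dsxF+/+ XY replicate 2 (0.0678 to 0.1005). For AGAP004046-RA they were all 6 and dsxF+/+ XX replicate 3 (0.0595 to 0.130), and for AGAP004046-RC dsxF-/- XX replicates 1 and 2 (0.0579 to 0.0732). All of these estimates divide shared reads between transcripts of a gene, so the split is less certain than the sum. Summed to genes, 803 of 10487 were higher in dsxF-/- XX and 165 lower.

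Read by share of counts, 5 transcripts of each set passed 1000 CPM in their higher group, a share that is not scaled for transcript length, and they are named for that after the fact. AGAP003620-RA had 33000, 43620 and 25294 normalized counts in dsxF-/- XX, against 9101, 3114 and 10221 in dsxF+/+ XY (log2 fold change 2.18). The log2 fold changes of AGAP012331-RA (2.09), AGAP011369-RA (1.48), AGAP008051-RA (1.30) and AGAP029809-RA (0.87) were smaller. In the lower set AGAP007160-RB had 105813, 81429 and 91860 in dsxF-/- XX, against 158400, 158953 and 177466 in dsxF+/+ XY, a log2 fold change of -0.83. The others were AGAP011462-RA (-1.38), AGAP013362-RA (-1.08), AGAP029909-RC (-0.85) and AGAP008842-RA (-0.82), so the most counted transcripts of the lower set changed by less than its median of 2.44-fold, apart from AGAP011462-RA. With each library left out in turn the calls of AGAP012331-RA, AGAP011462-RA and AGAP013362-RA were kept. The calls of AGAP007160-RB, AGAP008842-RA and AGAP029909-RC were lost without any 1 of the 6 libraries compared, and that of AGAP029909-RC also without dsxF+/+ XX replicate 3 (edgeR adjusted p = 0.0542 to 0.157 over these 3 transcripts). AGAP003620-RA lost its call without dsxF-/- XX replicate 2 (0.0607), and AGAP011369-RA without replicate 2 or 3 of dsxF-/- XX or of dsxF+/+ XY (0.0508 to 0.0833). AGAP008051-RA lost it without any dsxF-/- XX library, male replicate 1 or 2 or dsxF+/+ XX replicate 3 (0.0633 to 0.147), and AGAP029809-RA without dsxF-/- XX replicate 2 or 3, any male library, or dsxF+/+ XX replicate 1 or 3 (0.0589 to 0.165).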

How the data were processed

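Per the labels and the methods of the study, the library kit was SMART-Seq v4, which does not mark strand, and the authors quantified reads with kallisto against the AgamP4.12 transcripts after quality control with FastQC and MultiQC; versions are not given in the sources used here. STAR alignments served viewing only. What the authors deposited are estimated counts of 16066 transcripts in each library, not scaled for depth or length. Of the called transcripts 330 had an estimate that was not whole in some library, and 2 had the estimates of another transcript.

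These were rounded and fitted with edgeR 4.0.16 under R 4.3.3 (TMM scaling, filterByExpr by group, glmQLFit and glmQLFTest), with all 9 libraries in 1 fit of 3 groups and a common biological coefficient of variation of 36.0%. This kept 12379 transcripts. Fold changes are dsxF-/- XX over dsxF+/+ XY, and adjusted p-values follow Benjamini-Hochberg with a threshold of 0.05. Standard errors and 95% intervals include the spread between libraries. Each standard error was taken as the size of the log2 fold change over the square root of the test's F statistic. It is thus approximate, above all where a group is near 0 counts. The study itself used DESeq2, which is tried here (1.42.0) as an alternative beside limma-voom (limma 3.58.1), other scalings, filters, thresholds and blocks, gene sums, and leaving out 1 library at a time. For a group at 0 the floor was 3 counts over its libraries, which covers counting error only.

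Transcripts were matched to names only through the study's list of 82 transcripts with protein names and to its dynein (44) and tubulin (155) lists; the reference table matched 0 identifiers, and no sequences are given. Named are all listed transcripts that were called, the 2 largest unnamed changes per direction with separated libraries and at least 5 CPM, and others where said. Of 28 keyword lists searched in the names, 10 had a member and 8 had at least 5 tested. The lists for eye, muscle, olfactory binding, hemocyte, fat body and salivary gland proteins had none, so carry-over of those tissues was not analysed here. The members and lists were chosen with earlier results of these data known.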

Additional observations from a re-analysis of the deposited data

How the results depend on the processing

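The count of transcripts higher in dsxF-/- XX stayed within 1.5 times of 754, and that of those more than 2-fold higher within 1.5 times of 702, under limma-voom (650 higher), DESeq2 (1106 higher), edgeR on the 6 libraries alone (665), DESeq2 size factors in edgeR (764), low counts left in (724), at least 10 counts in every library (624) and gene sums (803). An adjusted p under 0.01 left 307 and 305 higher and 46 and 45 lower. DESeq2 moved the lower counts to 351 and, over 2-fold, 210; the cause was not tested. With each library left out in turn the higher calls ranged from 436 to 776 and those over 2-fold from 427 to 700, and the lower calls from 65 to 187 and those over 2-fold from 63 to 138. The libraries that moved a count by over 1.5 times were dsxF-/- XX replicate 2 (436 higher) and dsxF+/+ XY replicate 3 (498 higher) and, for the lower count, every dsxF-/- XX replicate (77, 66 and 65) and dsxF+/+ XY replicates 2 and 3 (87 and 74). Fewer libraries also mean a weaker test.

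The 51 called transcripts named in the text kept their direction in every setting in which they were tested, and 22 of them also kept their calls there, among them the 3 steady higher and 4 steady lower ones on the lists. At least 10 counts in every library left 18 of the 51 untested, AGAP001284-RA among them, and ended 1 call. The limma-voom fit did not call 4, AGAP002451-RA (adjusted p = 0.277), AGAP003350-RA (0.0687), AGAP028038-RA (0.0725) and AGAP007691-RA (0.0952). The 6 libraries alone ended 3 calls, with 1 transcript untested, low counts left in ended 6 and an adjusted p under 0.01 ended 28. AGAP028038-RA was among those lost with the 6 libraries alone (0.0667) and with low counts left in (0.0547). DESeq2 and its size factors in edgeR ended none.

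With the replicate number as a block 619 transcripts were higher and 120 lower, and with the run of sample-sheet numbers 637 and 152. Of the 51, the first block ended 12 calls and the other 7. On the lists these were AGAP005251-RA (adjusted p = 0.0721 and 0.0735), AGAP001672-RB (0.0873 and 0.0632) and AGAP028038-RA (0.0863 and 0.0758) with either block, and AGAP009638-RA (0.0501) with the replicate number alone. Outside the lists AGAP003350-RA was lost with either (0.0706 and 0.0690). Deviations of same-numbered dsxF-/- XX and dsxF+/+ XY libraries had r = -0.188, -0.0625 and 0.0179. Those of the same run of sheet numbers had -0.152, -0.0625 and 0.217. By replicate number, dsxF+/+ XY and dsxF+/+ XX libraries had 0.174, 0.452 and -0.0198, and dsxF-/- XX and dsxF+/+ XX libraries had -0.279, -0.146 and 0.0936. Whether libraries shared a batch was not tested. With 3 libraries a side, 46.2% of the transcripts had an interval within 2-fold, which is what the depth and spread allow.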
